A study of Mus musculus with 6 samples.

Results

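The 10 genes described here are repressors and output regulators of the circadian clock: Per1, Per2, Per3, Cry1, Cry2, Bhlhe40, Nr1d1, Nr1d2, Nfil3 and Dbp. They were measured in C3H10T1/2, an established line of multipotent mouse mesenchymal cells able to form several connective tissue types. Cultures received 1 µM dexamethasone, a potent agonist of the glucocorticoid receptor, or DMSO as vehicle, for 90 minutes. RNA of 3 dexamethasone and 3 vehicle cultures, which the series description calls biological replicates, went onto 6 two-colour arrays, with each sample in Cy3 against 1 common RNA pool of the same line in Cy5. The sample labels list myostatin-treated cells in that pool beside the DMSO and dexamethasone cells, while the series description mentions only vehicle and treated cells. All groups share the same unmodified line, and 1 line is the whole model. Members were taken by gene symbol: all 10 of them, among 18793 named genes tested, had at least 1 probe with a single symbol. They had 14 probes of the 38467 on the array, each with a value on all 6 arrays. Per2, Per3, Nr1d1 and Nr1d2 had 2 probes each and the others 1.

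The clock is a loop in which the activators CLOCK and BMAL1 (gene Arntl) bind E-box elements and switch on the Per and Cry genes, whose proteins then repress CLOCK and BMAL1. BHLHE40 competes at E-boxes, NR1D1 and NR1D2 (REV-ERB proteins) repress from ROR elements, and NFIL3 and DBP act on the same D-box element, NFIL3 as a repressor and DBP as an activator. Glucocorticoids are known to reset this loop in peripheral tissues and cultured fibroblasts, and Per1 is a textbook target of the glucocorticoid receptor.

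The promoter windows below show these elements in the 2 genes with the widest separation between the groups (Per1 and Nfil3) and in 2 genes that lay below vehicle or showed no clear separation (Per3 and Cry1). They are RefSeq sequences of build GRCm38.p6, 250 bases before to 50 after the start site, 5′ to 3′ on the gene's strand. The table held windows for 8 of the 10 members, all but Per2 and Bhlhe40. Capitals mark the E-box CACGTG, the related CACGTT, the D-boxes TTATGTAA and TTACGTAA and AGGTCA, the core hexamer of the ROR element, each searched on both strands. The bases beside AGGTCA were not searched, so a ROR element named below is this hexamer alone. The windows lie at chr11:69098699-69098998 (plus strand, Per1), chr13:52980990-52981289 (minus strand, Nfil3), chr4:151044616-151044915 (minus strand, Per3) and chr10:85185005-85185304 (minus strand, Cry1). Each spans the start of the gene's transcript, so it holds flanking sequence and the first bases of the first exon.
Per1: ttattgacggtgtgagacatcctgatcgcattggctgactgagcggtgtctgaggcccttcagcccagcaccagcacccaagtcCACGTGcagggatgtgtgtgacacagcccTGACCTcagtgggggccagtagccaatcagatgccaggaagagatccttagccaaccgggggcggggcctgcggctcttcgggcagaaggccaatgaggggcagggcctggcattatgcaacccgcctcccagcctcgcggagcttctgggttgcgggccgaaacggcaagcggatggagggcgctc
Nfil3: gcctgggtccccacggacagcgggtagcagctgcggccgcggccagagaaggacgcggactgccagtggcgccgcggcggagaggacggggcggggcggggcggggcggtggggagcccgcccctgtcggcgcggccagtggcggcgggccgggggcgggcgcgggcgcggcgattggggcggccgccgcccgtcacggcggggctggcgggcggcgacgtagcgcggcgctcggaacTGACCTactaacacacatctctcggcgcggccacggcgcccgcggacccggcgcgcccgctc
Per3: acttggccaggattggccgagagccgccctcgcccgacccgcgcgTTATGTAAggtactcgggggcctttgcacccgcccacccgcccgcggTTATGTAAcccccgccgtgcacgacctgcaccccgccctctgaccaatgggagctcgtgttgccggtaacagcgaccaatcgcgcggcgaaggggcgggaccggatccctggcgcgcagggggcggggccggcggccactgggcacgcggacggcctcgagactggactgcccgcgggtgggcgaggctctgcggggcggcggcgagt
Cry1: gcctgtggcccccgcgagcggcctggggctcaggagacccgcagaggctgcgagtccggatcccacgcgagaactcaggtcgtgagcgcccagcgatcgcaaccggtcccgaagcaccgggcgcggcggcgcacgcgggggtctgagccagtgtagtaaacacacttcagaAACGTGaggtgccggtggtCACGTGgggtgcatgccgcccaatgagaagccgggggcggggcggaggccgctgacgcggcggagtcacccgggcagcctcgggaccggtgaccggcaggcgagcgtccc

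The Per1 window held an E-box that begins 166 bases before the start site and a ROR element that begins 137 bases before it. A second Per1 window in the table held none of the elements. The Nfil3 window held 1 ROR element, beginning 12 bases before the start. The Per3 window held 2 D-boxes, beginning 205 and 158 bases before the start, and Cry1 held an E-box at 60 and the related CACGTT at 79. Among all 32851 windows of this length, 7.15% held the E-box, 4.68% CACGTT, 0.938% TTATGTAA, 0.119% TTACGTAA and 16.3% the ROR element. None of the 9 member windows held the core hexamer AGAACA of the glucocorticoid response element (both strands), which 19% of all windows held, nor the full element, which 3 windows held (0.00913%). CACGTT was added to the search after the data were examined. Such a match is a description of letters and not evidence of binding. A missing match likewise says nothing of elements that lie outside the window or differ in their letters.

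Values are log2 ratios between sample and pool as deposited. A ratio to a pool of the same cells gives no level, so one gene's ratio was not set against another's as a level, and the identity of the cells could not be checked from their markers. The number of arrays limits the precision. The labels do not say which way the ratio was taken. Sample over pool was taken as likely, because 4 of 5 textbook glucocorticoid targets other than Per1 (Fkbp5, Tsc22d3, Sgk1 and Dusp1, not Zbtb16) stood above vehicle without overlap under that reading. Zbtb16 had 1 probe, without a value on dexamethasone 3, and a difference of -0.40 ± 1.01 (SE). The direction is not settled, since no label gives it and the reading rests on these few targets. The lowest Spearman correlation between 2 arrays over all probes was -0.33 (dexamethasone 3 and vehicle 2). Turning the sign of every array would leave that value as it is, so it does not bear on the direction. With the sign turned, every "above" and "below" in the text would change places. As RNA of whole cultures was measured, fewer cells with a transcript and less of it per cell cannot be told apart.

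The arrays fell into 2 sets, drawn from the data by medians, correlations and the share of low-signal ratios, and this touches every result below. Dexamethasone 1, vehicle 1 and vehicle 2 had medians from -0.12 to -0.10, and dexamethasone 2, dexamethasone 3 and vehicle 3 from 0.16 to 0.57. Spearman correlations ran from 0.34 to 0.57 within the sets and from -0.33 to 0.07 between them. Over the 27046 genes and unnamed probes tested, the median dexamethasone minus vehicle difference was 0.32 as deposited, -0.09 with every array median set to 0 and -0.07 after quantile normalization between arrays. Of 9 measured markers of blood, endothelial and epithelial cells, 8 lay above vehicle and 7 above the median of everything tested. Only 1 (Pecam1) lay above vehicle without overlap, where 10.4% of everything tested did. The mean log2 ratio of the 9 was -0.61, 2.68 and 1.56 on the dexamethasone arrays and -0.15, -0.48 and 0.83 on the vehicle arrays. Only 3 of these 9 had a probe free of low signal, and their part in the results was not tested. Of 8 mesenchymal markers, 7 lay below vehicle, with a median difference of -0.47 over the 8. Of the 8, 2 (Pdgfrb at -0.46 and Twist1 at -0.98) lay below it without overlap, where 6.42% of everything tested did. Thy1 was the marker above vehicle, at 1.28 ± 0.57 (SE), and its groups overlapped.

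Nfil3, Per1 and Per2 stood above vehicle on all 3 dexamethasone arrays, while Per3, Dbp, Nr1d2 and Bhlhe40 stood below it on all 3. Cry1, Nr1d1 and Cry2 overlapped between the groups. None of the 10 members passed limma's test at a Benjamini-Hochberg adjusted p of 0.05 over all 27046 genes and unnamed probes, nor did any other gene (0% called in either direction). At an unadjusted p under 0.05 there were 3 members above vehicle (Nfil3, Per1 and Per2), where 4.43% of everything tested was called, and 0 below, where it was 0.995%. The groups did not overlap for 3 members above vehicle, against 10.4% of everything tested, and for 4 below, against 6.42%. With the sign turned, these counts would read 4 above and 3 below.

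**Figure D1:**
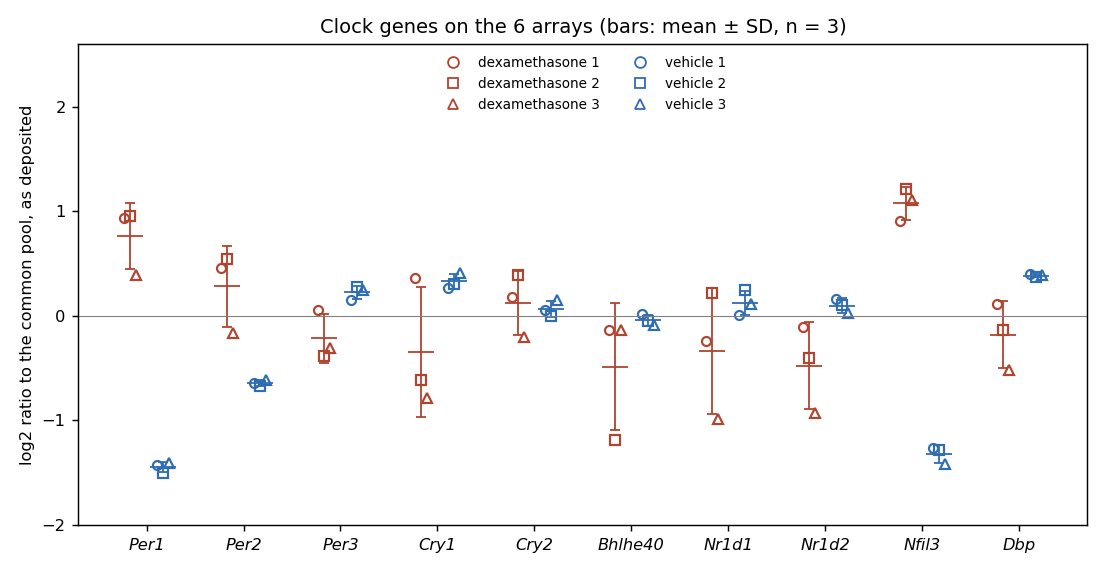
Log2 ratio to the common pool, as deposited, for each of the 10 clock genes (probes averaged) on the 3 dexamethasone arrays (red, left of each pair) and the 3 vehicle arrays (blue, right). Points are arrays, bars the mean ± SD; for Nfil3, Per1 and Per2 every dexamethasone point lies above every vehicle point, and the vehicle points lie closer together than the dexamethasone points for all 10 genes.

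Nfil3, which encodes the D-box repressor also known as E4BP4, gave the widest separation. Its log2 ratios were 0.91, 1.21 and 1.11 on dexamethasone arrays 1 to 3, against -1.26, -1.29 and -1.42 on vehicle arrays 1 to 3. The 2 groups lay far apart and each was tight, with means of 1.07 ± 0.16 with dexamethasone and -1.32 ± 0.08 with vehicle (SD, n = 3 each). The difference was 2.39 ± 0.18 (SE; 95% interval 1.93 to 2.86), which is 5.26-fold, or 2.08 above the median of everything tested. Nfil3 ranked 6 by p among the 27046, with a limma adjusted p of 0.141. It rests on 1 probe, which the filter on low signal left out because 1 value, on vehicle 3, equals the log2 of 3 over 8 to 3 decimals. Spots of very few intensity units give such ratios, and a match can also be a coincidence.

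Per1, an immediate light- and hormone-responsive member of the Per family, came next. It had log2 ratios of 0.93, 0.95 and 0.40 on dexamethasone arrays 1 to 3, against -1.43, -1.50 and -1.41 on vehicle arrays 1 to 3. Dexamethasone 3 was the lowest of its group and still lay 1.84 above the vehicle mean. The means were 0.76 ± 0.32 with dexamethasone and -1.45 ± 0.05 with vehicle (SD, n = 3 each). The difference of 2.21 ± 0.23 (SE; 95% interval 1.63 to 2.79), or 4.62-fold, ranked 27 by p, with a limma adjusted p of 0.177. After probes with low signal were left out, Per1 was the member that passed, with a limma adjusted p of 0.0485 among 17152 genes and unnamed probes, where 0.152% were called higher and 0.0175% lower. That call ended with median centring (adjusted p 0.134), with the replicate number as a block (0.536), without dexamethasone 2 or 3 (0.146 and 0.0806) and without vehicle 1, 2 or 3 (0.410, 0.488 and 0.344).

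Per2, the other Per gene that stood above vehicle, lay less far from it. The average of its 2 probes was 0.46, 0.55 and -0.16 on dexamethasone arrays 1 to 3, against -0.64, -0.67 and -0.61 on vehicle arrays 1 to 3. All 3 dexamethasone values lay above the vehicle values, and dexamethasone 3 lay nearest to them. The difference was 0.92 ± 0.25 (SE; 95% interval 0.28 to 1.57), or 1.90-fold, with a limma adjusted p of 0.708. The groups overlapped after median centring, which gave 0.51 ± 0.44 (SE), and after quantile normalization, which gave 1.03 ± 0.59. They did not overlap when median centring followed the low-signal filter, which gave 0.75 ± 0.27 (SE).

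The 2 Per2 probes, both assigned to the same transcripts, parted on 1 array. Probe mMA035000 had log2 ratios of 0.33, 0.39 and 0.37 on dexamethasone arrays 1 to 3, against -0.68, -0.84 and -0.70 on vehicle arrays 1 to 3, a tight difference of 1.10 ± 0.15 (SE) with a limma adjusted p of 0.193 over 36465 probes. Probe mMC007980 had 0.59, 0.71 and -0.69 on dexamethasone arrays 1 to 3, against -0.59, -0.51 and -0.53 on vehicle arrays 1 to 3. On dexamethasone 3 it lay below every vehicle value, 1.06 away from the other probe, while the median gap between the probes on the other 5 arrays was 0.26. The lower average of Per2 on dexamethasone 3 therefore came from this probe.

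Per3, the Per gene whose window holds the 2 D-boxes shown above, lay on the other side of vehicle. Its average was 0.06, -0.39 and -0.31 on dexamethasone arrays 1 to 3, against 0.15, 0.28 and 0.24 on vehicle arrays 1 to 3. The difference was -0.44 ± 0.20 (SE; 95% interval -0.95 to 0.07), with an adjusted p of 0.732. Both probes were lower in every dexamethasone value than in any vehicle value, with differences of -0.29 ± 0.17 (mMC000930) and -0.59 ± 0.25 (mMC016897; SE). Dexamethasone 1 lay 0.17 below the vehicle mean and dexamethasone 2 and 3 lay 0.61 and 0.54 below it.

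**Figure D2:**
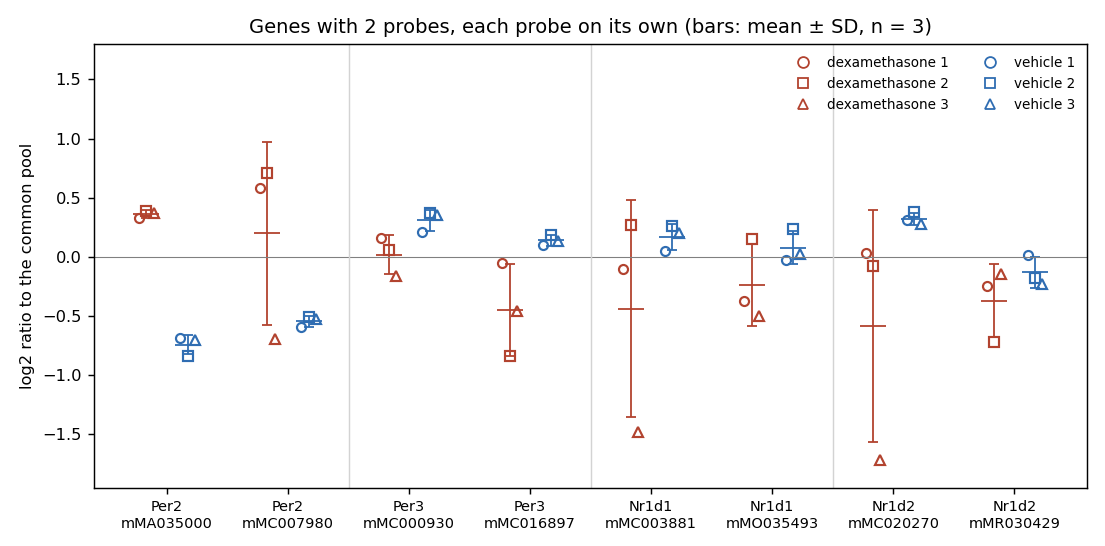
Log2 ratio to the common pool for each probe of the 4 genes with 2 probes, on the 3 dexamethasone arrays (red, left) and the 3 vehicle arrays (blue, right), with mean ± SD. The largest gap between 2 probes of a gene falls on dexamethasone 3 for Per2, Nr1d1 and Nr1d2 and on dexamethasone 2 for Per3, and the vehicle points of a probe stay within a narrow band.

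The cryptochromes, which bind the PER proteins and carry much of the repression of CLOCK and BMAL1, showed no clear separation. Cry1 had log2 ratios of 0.37, -0.62 and -0.79 on dexamethasone arrays 1 to 3, against 0.27, 0.31 and 0.41 on vehicle arrays 1 to 3. Dexamethasone 1 lay inside the vehicle range and the other 2 about 1 log2 unit below it, so the difference of -0.67 ± 0.36 (SE) was carried by dexamethasone 2 and 3. Without dexamethasone 1 and without low-signal probes, Cry1 was -1.03 ± 0.13 (SE) with a limma adjusted p of 0.0399, in a fit where both dexamethasone arrays left belong to the set of vehicle 3. That fit called 0.694% of the 17152 tested lower and 4.75% higher, and without the filter the adjusted p of Cry1 was 0.0697. Cry2 had 0.18, 0.40 and -0.20 on dexamethasone arrays 1 to 3, against 0.05, 0.00 and 0.15 on vehicle arrays 1 to 3. Its difference of 0.06 ± 0.22 (SE; 95% interval -0.52 to 0.63) turned to -0.36 after median centring, to -0.25 after quantile normalization and to -0.0795 without dexamethasone 2.

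Bhlhe40, a repressor that competes with CLOCK and BMAL1 for E-boxes, was below vehicle mainly on 1 array. It had log2 ratios of -0.13, -1.19 and -0.13 on dexamethasone arrays 1 to 3, against 0.02, -0.05 and -0.09 on vehicle arrays 1 to 3. Dexamethasone 1 and 3 lay 0.09 below the vehicle mean and dexamethasone 2 lay 1.15 below it. The difference was -0.45 ± 0.35 (SE; 95% interval -1.34 to 0.45), and it was -0.09 without dexamethasone 2.

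The REV-ERB genes Nr1d1 and Nr1d2 lay below vehicle with wide spread. Nr1d1 averaged -0.24, 0.21 and -0.99 on dexamethasone arrays 1 to 3, against 0.01, 0.25 and 0.11 on vehicle arrays 1 to 3, a difference of -0.46 ± 0.35 (SE). Dexamethasone 2 lay within the vehicle range and dexamethasone 3 lay furthest below it; the difference was -0.14 without dexamethasone 3 and -0.74 without dexamethasone 2. Nr1d2 averaged -0.11, -0.40 and -0.93 on dexamethasone arrays 1 to 3, against 0.16, 0.10 and 0.02 on vehicle arrays 1 to 3, a difference of -0.57 ± 0.27 (SE), which was -0.35 without dexamethasone 3. All 3 dexamethasone averages were below the vehicle averages, yet the probes of Nr1d2 were 1.57 apart on dexamethasone 3. Probe mMC020270 read -1.72 there and probe mMR030429 read -0.14, which overlapped its vehicle values. Probe by probe, the differences of Nr1d2 were -0.91 ± 0.52 and -0.24 ± 0.22 (SE), and those of Nr1d1 were -0.61 ± 0.50 (mMC003881) and -0.32 ± 0.24 (mMO035493).

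Dbp, the D-box activator and a classical output gene of the clock, stood on the other side of vehicle from Nfil3. It had log2 ratios of 0.11, -0.14 and -0.52 on dexamethasone arrays 1 to 3, against 0.40, 0.37 and 0.39 on vehicle arrays 1 to 3. The vehicle values were nearly equal (SD 0.01), and the dexamethasone values lay 0.27, 0.52 and 0.90 below their mean. The difference was -0.56 ± 0.23 (SE; 95% interval -1.14 to 0.01), or 1.48-fold lower, with a limma adjusted p of 0.732.

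**Figure D3:**
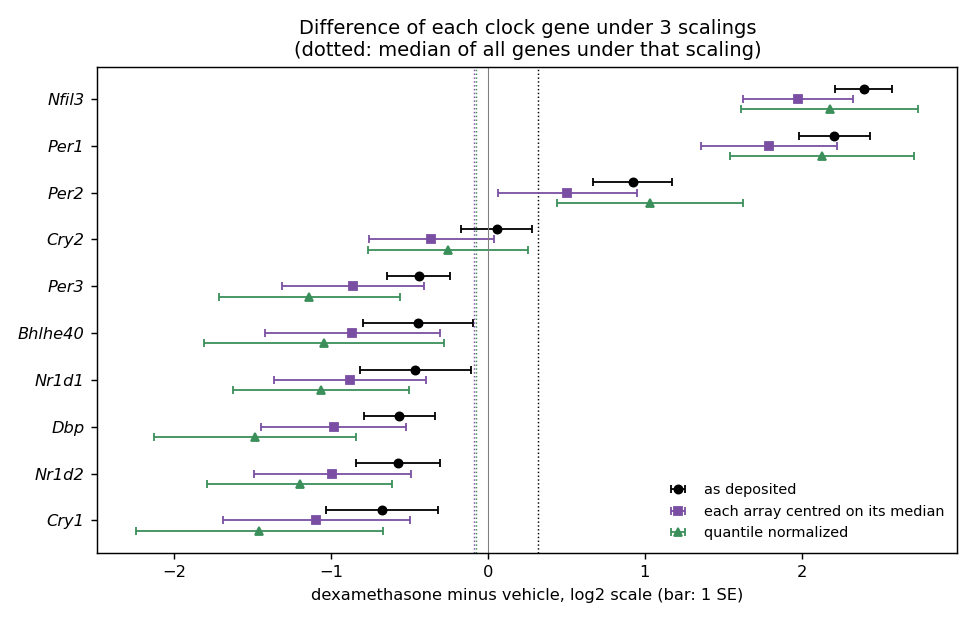
Dexamethasone minus vehicle difference of each clock gene on the log2 scale, with 1 SE, as deposited, after centring each array on its median and after quantile normalization; dotted lines give the median of everything tested under each scaling (0.32, -0.09 and -0.07). Nfil3 and Per1 lie near 2 under all 3 scalings, Per2 keeps a value above 0, Cry2 changes sign, and the other 6 lie below 0 under each.

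Read against the median of everything tested, 3 members lay above it (Nfil3, Per1 and Per2) and 7 below. The members' median difference was -0.44, against 0.32 for everything tested, and they ran from -0.67 to 2.39. Taken probe by probe, limma called 0 of the 14 (0% of 36465 probes in either direction); 3 member probes stood above vehicle without overlap, against 10.8% of all probes, and 5 below, against 7.44%. After median centring and after quantile normalization alike, 2 members (Nfil3 and Per1) stood above vehicle without overlap, where 5.45% and 6.01% of everything tested did. The number below vehicle without overlap was then 0 under both, where 3.32% and 3.19% did so, although the differences lay further below 0. With median centring and with quantile normalization they were -0.98 and -1.48 for Dbp, -0.86 and -1.14 for Per3, -1.09 and -1.45 for Cry1, -0.99 and -1.20 for Nr1d2, -0.88 and -1.06 for Nr1d1 and -0.86 and -1.04 for Bhlhe40. When median centring followed the low-signal filter, which leaves Nfil3 out, Per1 and Per2 stood above vehicle without overlap. Per3 (-0.62), Nr1d1 (-0.64) and Dbp (-0.74) then stood below it without overlap, while Nr1d2, Bhlhe40, Cry1 and Cry2 overlapped. The share of everything tested was not counted for that setting. Leaving out 1 array cannot make groups overlap that were apart on all 6. Nfil3, Per1 and Per2 therefore had to stay above, and Per3, Dbp, Nr1d2 and Bhlhe40 below, without overlap in all 6 cases. With 2 arrays in a group, a lack of overlap is also easier to meet for any gene. The shares of everything tested were then 11.7% to 43% above and 7.38% to 12.5% below.

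The same comparison was made within each set of arrays, without any comparison across the sets. In the first set, dexamethasone 1 minus the mean of vehicle 1 and 2 was 2.18 for Nfil3, 2.40 for Per1 and 1.11 for Per2, with a median of -0.05 over everything tested. In the second, the mean of dexamethasone 2 and 3 minus vehicle 3 was 2.57, 2.08 and 0.81 for these genes, with a median of 0.24. The 3 genes lay above vehicle in both sets, a sign that their lack of overlap over all 6 arrays had already fixed. Per3 (-0.16 and -0.59), Bhlhe40 (-0.12 and -0.57), Nr1d1 (-0.37 and -0.50), Nr1d2 (-0.24 and -0.69) and Dbp (-0.27 and -0.71) lay below vehicle in both, each closer to 0 in the first set. The sign was fixed in the same way for Per3, Bhlhe40, Nr1d2 and Dbp, and not for Nr1d1. Only the sizes within a set are therefore new for the genes without overlap. Cry1 (0.08 and -1.11) and Cry2 (0.15 and -0.05) had opposite signs in the 2 sets. Each set has 1 array in one of its groups, so neither set was tested alone. With the set as a block in limma's fit over all 6 arrays, the differences were 2.38 ± 0.20 for Nfil3 (adjusted p 0.335), 2.24 ± 0.25 for Per1 (0.363), 0.96 ± 0.28 for Per2 (0.778) and -0.49 ± 0.23 for Dbp (0.853; SE), and 0 members passed.

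A gap between 2 genes on the same array is free of any shift of the whole array. The pairs shown were chosen after their values were seen, so they are described without a test. Except for Per1 minus Cry1, each sets a gene above vehicle without overlap against a gene below it without overlap. Their gaps therefore had to differ between the groups without overlap, and only the sizes are new. Nfil3 minus Dbp, the repressor and the activator of the D-box, was 0.79, 1.35 and 1.62 on dexamethasone arrays 1 to 3, against -1.66, -1.66 and -1.80 on vehicle arrays 1 to 3. Per1 minus Per3 was 0.88, 1.34 and 0.71 on dexamethasone arrays 1 to 3, against -1.59, -1.78 and -1.65 on vehicle arrays 1 to 3. The gap with dexamethasone minus that with vehicle was 2.65 for Per1 against Per3 and 1.36 for Per2 against Per3. The gap of Per1 to Dbp was the steadiest of the 5 pairs computed, at 0.94 ± 0.14 with dexamethasone and -1.83 ± 0.04 with vehicle (SD, n = 3 each). Per1 minus Cry1 averaged 1.11 ± 0.50 with dexamethasone and -1.78 ± 0.07 with vehicle (SD, n = 3 each). Cry1 overlapped between the groups, yet the wide separation of Per1 fixed the lack of overlap of this gap too.

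**Figure D4:**
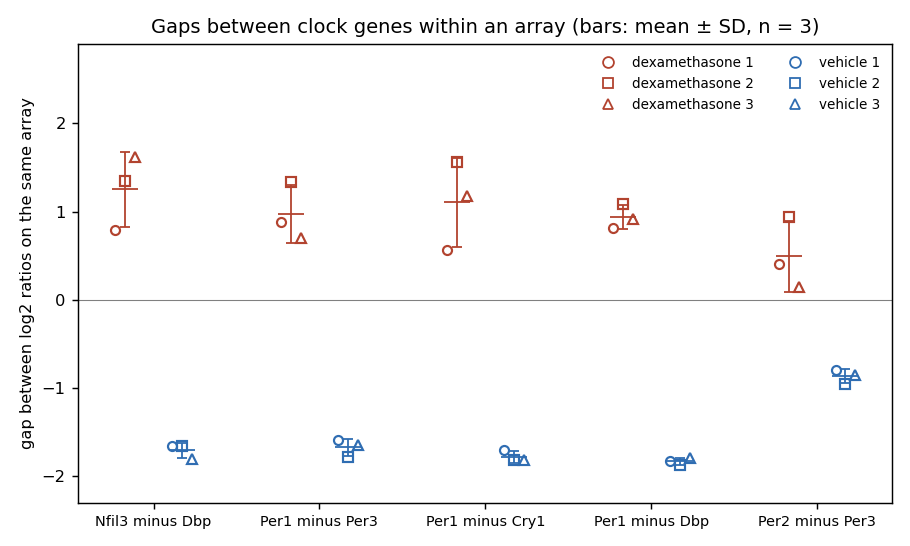
Gap between the log2 ratios of 2 clock genes on the same array, for 5 pairs chosen after the values were seen, on the 3 dexamethasone arrays (red, left) and the 3 vehicle arrays (blue, right), with mean ± SD. The gaps lie above 0 on every dexamethasone array and below 0 on every vehicle array, where the place of 0 depends on the pool. The lack of overlap was fixed by the choice of pairs, for Per1 minus Cry1 through the wide separation of Per1.

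The spread of the members differed between the groups. Of the 14 member probes, 13 had a larger SD over the dexamethasone arrays than over the vehicle arrays, the exception being the Per2 probe mMA035000. The SD ran from 0.03 to 0.98 with dexamethasone and from 0.01 to 0.14 with vehicle, and the median quotient was 7.22. Over all probes with values on every array, 85.7% had the larger SD with dexamethasone, with a median SD of 0.61 against 0.14 with vehicle. Dexamethasone 3 was the lowest of the dexamethasone arrays for 9 member probes, dexamethasone 2 for 3 and dexamethasone 1 for 2. Over all 31071 probes measured on every array, dexamethasone 3 was the lowest for 28.0%, dexamethasone 2 for 19.2% and dexamethasone 1 for 52.8%. With the sign of the ratio turned, the lowest would be those now highest: dexamethasone 1 for 6 member probes, dexamethasone 2 for 7 and dexamethasone 3 for 1, and over all probes 19.6%, 43.2% and 37.3%.

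Other genes had profiles over the 6 arrays close to those of Nfil3 and Per1. Likeness was taken as the root mean square distance between log2 ratios after each gene's own mean was removed, over 16509 other named genes. The 5 closest to Nfil3 were Adm (distance 0.10), Spsb1 (0.15), Rgs2 (0.19), Rab3d (0.20) and Gadd45g (0.20). Adm encodes the vasodilator peptide adrenomedullin and Rgs2 a regulator of G protein signalling. The 5 closest to Per1 were Ism1 (0.16), Rasd1 (0.18), Gem (0.19), Fabp4 (0.20) and Sox17 (0.21), the last with low signal. Rasd1 and Gem encode small GTPases. These 10 genes had differences from 1.91 (Fabp4) to 2.71 (Rgs2). A small distance over the 6 arrays requires a similar difference, so these sizes follow from the choice of genes. The likeness is a description over 6 arrays.

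Of 24 other clock genes, 21 were measured and 0 passed limma's test at an adjusted p of 0.05 (0% of everything tested). At an unadjusted p under 0.05, 4 lay above vehicle (4.43% of everything tested) and 0 below. The groups did not overlap for 8 above vehicle (10.4%) and 3 below (6.42%), which became 3 and 2 after median centring (5.45% and 3.32%). The list's median difference was 0.36, against 0.32 for everything tested. The activator genes were among those near or under that median or with wide spread: Clock was at 0.06 ± 0.16, Arntl (which encodes BMAL1) at -0.33 ± 0.26, Arntl2 at -0.24 ± 0.17 and Npas2, with low signal on both probes, at 1.70 ± 0.73 (SE).

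Wee1, a clock-controlled kinase gene that holds back entry into mitosis, had the smallest p of the 21. It had log2 ratios of 0.87, 1.02 and 0.42 on dexamethasone arrays 1 to 3, against -0.76, -0.71 and -0.67 on vehicle arrays 1 to 3. The difference was 1.48 ± 0.23 (SE), 2.80-fold, with a limma adjusted p of 0.287. Usp2, which encodes a deubiquitinase under clock control, averaged 0.26, 1.01 and 1.93 on dexamethasone arrays 1 to 3, against -1.20, -0.97 and -0.80 on vehicle arrays 1 to 3. The difference was 2.06 ± 0.47 (SE), with an adjusted p of 0.553. Its 4 probes all lay above vehicle, with differences of 2.29, 1.23, 2.51 and 2.21, and the first and last of these had low signal.

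Bhlhe41, the close relative of Bhlhe40, stood on the other side of vehicle from it. It had log2 ratios of -0.12, 0.06 and 0.22 on dexamethasone arrays 1 to 3, against -0.42, -0.58 and -0.50 on vehicle arrays 1 to 3. The difference was 0.55 ± 0.18 (SE; 95% interval 0.08 to 1.02), which is 0.23 above the median of everything tested. Below vehicle without overlap were Noct, a gene for a phosphatase long described as a deadenylase (-0.29 ± 0.18), Arntl2 and Nono, which encodes a partner of the PER proteins (-0.20 ± 0.19, SE). The 3 probes of Noct disagreed in sign, with differences of -0.59, -0.41 and 0.12. Hlf, a relative of Dbp, had a value of 7.71 on vehicle 3 that alone set its difference of -2.24 ± 2.26 (SE).

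**Figure D5:**
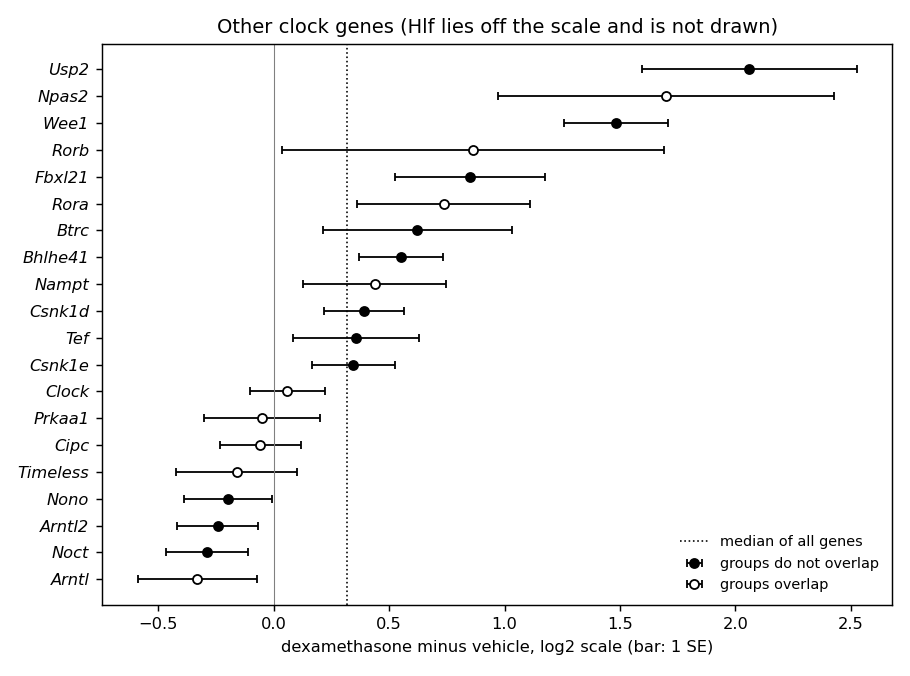
Dexamethasone minus vehicle difference, on the log2 scale with 1 SE, of 20 other measured clock genes (Hlf is off the scale). Filled points mark genes whose groups do not overlap, and the dotted line marks the median of everything tested (0.32); Usp2 at 2.06 and Wee1 at 1.48 lie furthest above it among the filled points.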

How the data were processed

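The deposited series matrix was used: the authors' ratios between sample and pool, 38467 probes on 6 arrays. They were taken as log2 from the values themselves. Because 4 columns hold some deposited values too large for a log2 ratio of intensities, the unit of those columns was named a score; every member value lies within the log2 range. The submitters' processing notes name limma. How the authors corrected background or normalized is unstated in the labels. Samples were grouped by their titles.

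Genes were named through the platform annotation (29456 probes with 1 symbol, 760 with several, the rest unnamed; Entrez identifiers changed 0 symbols). Probes of a gene were averaged, and 2 values per group were required. Dexamethasone minus vehicle was fitted across the table by limma 3.58.1 under R 4.3.3 (empirical Bayes, no block, two-sided, Benjamini-Hochberg at 0.05), and again probe by probe. The script was tested on simulated data. The low-signal filter drops a probe if any of its 6 values is missing, equals the log2 of a quotient of integers no larger than 10, or exceeds 10 in size. With 3 against 3 arrays an exact permutation test cannot go below 0.1, so none was used. The members, lists and settings were chosen with earlier results of these data known. The named genes were every member, the 3 other clock genes per direction with the smallest p among those whose groups did not overlap, the 5 closest profiles to Nfil3 and Per1, and the 6 genes used to judge direction; Clock, Arntl, Npas2 and Hlf were named after their values were seen. Alternatives were a replicate block, an array-set block, centring, quantile normalization, filters, weights, priors and leaving out each array. Same-numbered arrays did not deviate together throughout (Pearson 0.30, -0.10 and 0.24 for numbers 1, 2 and 3), so the numbers were not taken as pairs.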

Additional observations from a re-analysis of the deposited data

How the results depend on the processing

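Under the alternatives tried, the differences of the 10 members kept their sign, except that Cry2, at 0.06, turned to -0.36 with median centring, -0.25 with quantile normalization, -0.12 with the low-signal filter and median centring, and -0.0795 without dexamethasone replicate 2, with or without that filter; without 1 array it ran from -0.0795 to 0.22. The values ran from 1.98 to 2.48 for Nfil3, 1.79 to 2.39 for Per1 and 0.51 to 1.14 for Per2. They ran more widely for the members below vehicle, from -1.48 to -0.40 for Dbp, -1.14 to -0.29 for Per3, -1.45 to -0.45 for Cry1, -1.20 to -0.24 for Nr1d2, -1.06 to -0.14 for Nr1d1 and -1.04 to -0.09 for Bhlhe40. limma called 0 of everything tested as planned (1468 at an unadjusted p under 0.05). It called 29 with the low-signal filter, 5 with values on all arrays only, 2 with 1 value per group, 2 with a trend in the prior and 4 with the filter and median centring. Without 1 array the count was 0, and after the filter it ran from 0 to 934, the latter without dexamethasone replicate 1. Members called were 1 with the filter (Per1) and 0 to 2 with the filter and 1 array left out (Per1 and Cry1 without dexamethasone replicate 1). Member probes called were 1 with the filter (0.19% of 23112 probes were called), 0 to 1 without 1 array (the Nfil3 probe, without dexamethasone replicate 1, where 0.434% of 32231 were called) and 0 to 3 with both (3 of 13 without dexamethasone replicate 1, where 5.61% of 23112 were called). Other clock genes called were 0 to 2 with the filter and 1 array left out (Usp2 and Wee1). With the replicate number as a block 0 members passed, where Per1 was 2.21 with an adjusted p of 0.707 and 0.536 after the filter; dexamethasone 2 deviated most like vehicle 3 (Pearson 0.20), so the numbers are not shown to pair. The cause of these changes was not tested. Scanner intensities were not used here, so signal over background is known only through the whole-number ratios.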
